A study of Schizosaccharomyces pombe with 9 samples.

Results

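The 9 genes of cell-to-cell adhesion described here were followed in the fission yeast Schizosaccharomyces pombe: 7 surface proteins, most of them flocculins, and 2 transcription factors that control them. The members were taken by identifier and make up 9 of the 6986 identifiers in the count table. The surface proteins were gsf2 (SPCC1742.01), pfl2 (SPAPB15E9.01c), pfl3 (SPBC947.04), pfl4 (SPCC188.09c), pfl5 (SPBC1289.15), pfl7 (SPBC359.04c) and pfl9 (SPAC186.01), and the transcription factors were mbx2 (SPBC317.01) and cbf12 (SPCC1223.13). The selection named SPCC188.09c as pfl8, but the RefSeq annotation of assembly ASM294v3 calls it pfl4 and gives the name pfl8 to SPAC1F8.06. The annotated name is used throughout, and SPAC1F8.06 is described with the other surface adhesins. All 9 members passed the filter on low counts, with between 142 counts (pfl9) and 43555 counts (pfl2) in a library.

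Polyadenylated RNA was sequenced from log-phase, vegetatively growing cultures in YES medium, a rich medium, with 3 libraries from each of 3 strains. Wild type (WT) libraries carry the replicate numbers 4, 5 and 6. The aps1 deletion strain (aps1∆ in the labels) lacks a hydrolase of inositol pyrophosphates. The allele asp1-D333A alters the kinase part of Asp1, an enzyme that makes some of these phosphate-rich signalling molecules. Both mutants have libraries 1, 2 and 3. Each group has a single strain number, and the labels do not say that libraries came from separate cultures, so p-values measure the spread between these libraries, which may be technical. The labels do not state other markers or alleles that the strains may share.

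Flocculation is the clumping of cells of the same kind outside mating. Flocculins are long glycoproteins, often with repeated stretches, that are carried to the cell surface and bind sugars of neighbouring cells. In fission yeast Gsf2 is known as the main flocculin. The MADS-box factor Mbx2 and Cbf12, a protein of the CSL family that binds DNA, are known as activators of flocculin genes, and their excess makes cells flocculate.

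In the aps1 deletion both transcription factors and 3 of the 7 surface proteins rose, 5 of 9 members. Of all 6147 genes tested 6.73% were called higher and 16.6% were called in either direction. The members were chosen with earlier results of these data known, so their count is not an independent test. The pfl3 transcript rose most, 3.63-fold, followed by mbx2 (2.12-fold) and cbf12 (1.7-fold), with smaller rises of pfl7 and gsf2. In asp1-D333A, where 61.1% of all genes were called, pfl3 rose 1.17-fold, cbf12 fell to 0.746 of WT, and mbx2 did not pass the test. There pfl5 stood at 0.823 of WT, a call lost in 10 of 17 alternatives, while that of cbf12 held in all 17.

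Several of these genes are repetitive, which bears on how reads were assigned to them. Words of 50 bases that occur more than once in the ASM294v3 genome made up 48.2% of the exon sequence of pfl5, 39.9% of gsf2, 33.7% of pfl3 and 14.8% of pfl2, and 0% of the other 5 members. All of these repeats lay within the gene itself, and no word of any member was found elsewhere in the genome, so a read could match 2 places of one gene but not another gene at this word length. The coding sequence of gsf2 (chromosome III) held 6 copies of a 234-base unit, at a mean identity of 95.6% between neighbouring copies. That of pfl3 (chromosome II) held 9 copies of a 105-base unit at 95.7%, and pfl5 (chromosome II) held 16 copies of a 105-base unit at 89.5%. One copy each of the pfl3 and pfl5 units is shown, on the coding strand (minus for pfl3, plus for pfl5), because the 2 genes share the length of the unit and responded differently. Capitals mark the bases at which they differ, and 77 of 105 positions (73.3%) were equal after the pfl5 unit was turned to the phase of pfl3.
pfl3 unit: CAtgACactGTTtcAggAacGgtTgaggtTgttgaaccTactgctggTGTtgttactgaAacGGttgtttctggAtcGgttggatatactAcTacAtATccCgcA
pfl5 unit: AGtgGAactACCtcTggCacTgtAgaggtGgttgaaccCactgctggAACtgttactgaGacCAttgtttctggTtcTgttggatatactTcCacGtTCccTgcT
The gsf2 unit on its coding strand (minus) is longer and has no counterpart of the same length among the other members.
gsf2 unit: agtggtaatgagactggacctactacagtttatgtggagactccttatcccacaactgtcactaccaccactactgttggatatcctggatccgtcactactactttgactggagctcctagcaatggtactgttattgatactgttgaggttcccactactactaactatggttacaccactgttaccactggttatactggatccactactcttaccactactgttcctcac

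The 300 bases from 250 before to 50 after the annotated transcript start are shown for mbx2 (chromosome II, plus strand), whose annotated transcript begins at the start codon and lies opposite a long non-coding RNA. Capitals mark the start codon.
mbx2 start region: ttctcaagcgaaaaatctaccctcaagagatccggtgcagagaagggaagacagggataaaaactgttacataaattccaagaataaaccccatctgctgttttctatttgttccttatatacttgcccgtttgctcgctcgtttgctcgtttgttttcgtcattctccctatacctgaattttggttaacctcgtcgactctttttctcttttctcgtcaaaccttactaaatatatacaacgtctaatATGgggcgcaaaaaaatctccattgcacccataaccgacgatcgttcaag
A 90-base stretch before the start of pfl9 (chromosome I, plus strand) held the only element of the CSL family found in the 300-base windows of the 9 members, which is marked in capitals together with the start codon.
pfl9 start region: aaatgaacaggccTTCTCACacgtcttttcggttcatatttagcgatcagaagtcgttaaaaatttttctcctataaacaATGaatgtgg
Motifs were searched on both strands in 5110 windows of protein-coding genes. The CSL element, GTGGGAA or GTGAGAA, occurred in 5.0% of them, and among the members in pfl9 alone, at position -67 from the start. The annotated transcript of pfl9 begins at its start codon, so that position is counted from the codon. Another motif, GNAACA or GNAACG (the PCB motif of cell-cycle genes), occurred in 65.5% of the windows and in 4 members, pfl2, pfl5, mbx2 and cbf12. In windows reaching 1000 bases the CSL element occurred in 15.6% of the genes and was found in pfl2 as well, at position -894. These matches are letters in a window and not shown binding sites.

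**Figure D1:**
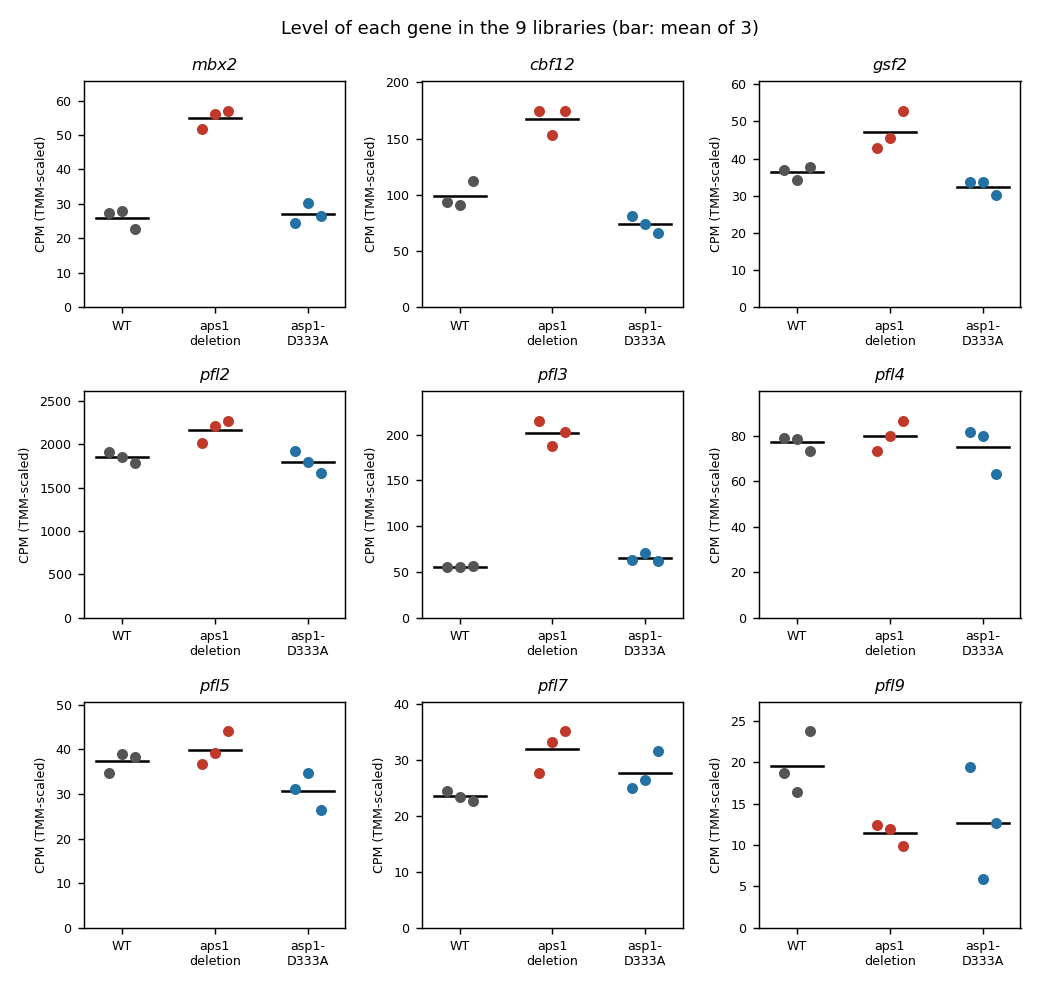
Level of each of the 9 genes in CPM (counts scaled to a common library size by TMM) in every library of WT (grey), the aps1 deletion (red) and asp1-D333A (blue), with a bar at the mean of 3 libraries; each vertical axis starts at 0. The deletion libraries of mbx2, cbf12, gsf2, pfl2 and pfl3 lie above all WT and asp1-D333A libraries, while pfl4 overlaps between all 3 strains.

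Facts of the whole table frame these values. Total counts ran from 18244492 to 22999732 per library. Transcripts of aps1 stood at 2516 to 2634 counts in WT and at 137 to 224 counts in the deletion (log2 fold change -3.89, edgeR adjusted p 3.2e-10). In asp1-D333A aps1 was called lower than in WT as well (-0.69, SE 0.10, edgeR adjusted p 7.2e-05). The asp1 transcript was called higher in the deletion (0.34, SE 0.11, edgeR adjusted p 0.048) but not in asp1-D333A (0.15, edgeR adjusted p 0.25). Leaving out asp1-D333A replicate 3 raised the genes called between the aps1 deletion and WT from 1018 to 1668, a comparison that library is no part of, as all strains share 1 estimate of the spread. That library also gave the lowest level of its strain for 6 of the 9 members (gsf2, pfl2, pfl3, pfl4, pfl5 and cbf12) and the highest for pfl7. RNA came from whole cultures, so a level per cell and a share of cells with the transcript cannot be told apart.

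Levels per length set the genes in order. In WT, pfl2 stood at 421.7 ± 15.6 CPM per kb of exon (SD, n = 3), far above all other members. Next came cbf12 at 22.1 ± 2.64 and pfl4 at 21.5 ± 0.888 CPM per kb, whose libraries overlapped, then pfl3 at 17.1 ± 0.139, pfl7 at 16.3 ± 0.616 and pfl9 at 15.5 ± 2.98. The last 3 were not apart beyond their spread, and pfl9 also overlapped mbx2 at 12.9 ± 1.45 CPM per kb. Below them lay pfl5 at 8.85 ± 0.527 and gsf2 at 5.32 ± 0.284 CPM per kb, each clear of its neighbours on this scale. The scale divides by the whole exon length. If reads that match repeated stretches were not counted, it understates pfl5, gsf2, pfl3 and pfl2, and the place of these genes in the order was not tested for that. In the aps1 deletion the order changed: pfl3 moved to second place at 62.0 ± 4.28 CPM per kb, ahead of cbf12 at 37.5 ± 2.91 and mbx2 at 27.2 ± 1.47, and behind pfl2 at 493.7 ± 31.1. The share of pfl2 in the counts of the 7 surface proteins was 87.6% to 88.5% in the WT libraries, 83.1% to 84.8% in the deletion and 87.7% to 88.3% in asp1-D333A.

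Of the regulators, mbx2 was read at 27.4, 27.9 and 22.6 CPM in WT replicates 4, 5 and 6, and at 51.6, 56.2 and 57.1 CPM in aps1 deletion replicates 1, 2 and 3. In asp1-D333A replicates 1, 2 and 3 it was read at 24.4, 30.4 and 26.6 CPM. Every deletion library lay above every other library, and asp1-D333A overlapped WT. The rise in the deletion was 1.08 on the log2 scale (SE 0.11, edgeR adjusted p 2.3e-05). In asp1-D333A the log2 fold change was 0.06 (SE 0.11, edgeR adjusted p 0.64), and between the mutants it was 1.02 (SE 0.11, edgeR adjusted p 2e-06).

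The cbf12 transcript was read at 93.3, 90.6 and 112 CPM in WT, 175, 153 and 175 CPM in the deletion strain and 80.8, 73.8 and 66.3 CPM in asp1-D333A, replicates in number order. No group overlapped another, with the deletion highest and asp1-D333A lowest. Against WT it rose by 0.77 on the log2 scale in the deletion (SE 0.10, edgeR adjusted p 0.00014) and fell by 0.42 in asp1-D333A (SE 0.10, edgeR adjusted p 0.0018). The difference between the mutants was 1.19 (SE 0.10, edgeR adjusted p 2e-07). Among the members, cbf12 alone passed the test in opposite directions in the 2 mutants.

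Among the surface proteins, pfl3, a DIPSY family glycoprotein in the annotation, was read at 55.3, 55.5 and 56.2 CPM in WT, a spread of 0.452 (SD). It was read at 215, 187 and 203 CPM in the deletion strain and at 63.1, 70.8 and 61.5 CPM in asp1-D333A. The groups did not overlap, and the lowest deletion library, at 187 CPM, stood far above the highest of the other strains, at 70.8 CPM. Against WT its log2 fold change was 1.86 in the deletion (SE 0.07, edgeR adjusted p 3.9e-09) and 0.23 in asp1-D333A (SE 0.07, edgeR adjusted p 0.017). Between the mutants the deletion was higher by 1.63 (SE 0.07, edgeR adjusted p 1.4e-09). The smaller change lost its call without asp1-D333A replicate 2 (0.16, edgeR adjusted p 0.083).

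For gsf2, levels were 36.9, 34.1 and 37.8 CPM in WT, 42.9, 45.5 and 52.9 CPM in the deletion strain and 33.6, 33.6 and 30.2 CPM in asp1-D333A. The 3 groups did not overlap. The deletion stood 0.38 above WT on the log2 scale (SE 0.10, edgeR adjusted p 0.017) and 0.54 above asp1-D333A (SE 0.10, edgeR adjusted p 0.00022). The call against WT was lost without WT replicate 5 or without aps1 deletion replicate 3. For asp1-D333A against WT the value was -0.16 (SE 0.10, edgeR adjusted p 0.17).

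The DIPSY family gene pfl7 stood at 24.4, 23.3 and 22.6 CPM in WT, 27.6, 33.1 and 35.1 CPM in the deletion strain and 25, 26.4 and 31.6 CPM in asp1-D333A. Every library of either mutant lay above the WT libraries, and the mutants overlapped. The rise in the deletion was 0.45 on the log2 scale (SE 0.11, edgeR adjusted p 0.018), and it did not pass in 4 of 9 refits with a library removed, those lacking WT replicate 5 or 6 or aps1 deletion replicate 2 or 3. In asp1-D333A the value was 0.24 (SE 0.11, edgeR adjusted p 0.081).

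Levels of pfl2, the most abundant member, were 1910, 1850 and 1780 CPM in WT, 2010, 2210 and 2270 CPM in the deletion strain and 1920, 1790 and 1670 CPM in asp1-D333A. The deletion libraries were above all others, and asp1-D333A overlapped WT. Against WT the deletion did not pass the test (log2 fold change 0.23, SE 0.08, edgeR adjusted p 0.075), though it did with DESeq2 (0.24, adjusted p 0.017), in a fit of the 6 libraries alone (0.24, edgeR adjusted p 0.025), and with either aps1 deletion replicate 1 or asp1-D333A replicate 3 left out. Between the mutants the deletion was higher by 0.27 (SE 0.08, edgeR adjusted p 0.01), a call that upper-quartile scaling (0.05, edgeR adjusted p 0.54) and total counts (0.08, edgeR adjusted p 0.25) did not give.

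The remaining 3 surface proteins did not pass the test in the aps1 deletion. The glycoprotein gene pfl5 was read at 34.8, 38.9 and 38.2 CPM in WT, 36.7, 39.1 and 44.1 CPM in the deletion and 31.2, 34.6 and 26.3 CPM in asp1-D333A. Only asp1-D333A lay below WT without overlap. The fall there was small and easily lost: -0.28 on the log2 scale (SE 0.11, edgeR adjusted p 0.041), with no call in 10 of 17 alternatives, among them upper-quartile and total-count scaling and the fit without asp1-D333A replicate 3 (-0.18, edgeR adjusted p 0.12). In the deletion the log2 fold change of pfl5 was 0.10 (SE 0.11, edgeR adjusted p 0.58), and the deletion stood above asp1-D333A by 0.38 (SE 0.11, edgeR adjusted p 0.0074), a call lost with upper-quartile and total-count scaling.

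The flocculin gene pfl4 was read at 79.2, 78.9 and 73.6 CPM in WT, 73.2, 79.8 and 86.7 CPM in the deletion strain and 81.9, 80.2 and 63.2 CPM in asp1-D333A. All groups overlapped, with log2 fold changes against WT of 0.05 (SE 0.10, edgeR adjusted p 0.78) in the deletion and -0.04 (SE 0.10, edgeR adjusted p 0.73) in asp1-D333A. The DIPSY family gene pfl9, whose start region holds the CSL element, varied most within a strain. It stood at 18.7, 16.4 and 23.8 CPM in WT, 12.4, 12.0 and 9.91 CPM in the deletion and 19.5, 5.85 and 12.7 CPM in asp1-D333A. The deletion libraries were all below WT, and asp1-D333A spanned a range wider than either. In the fit of all libraries the deletion did not pass the test (log2 fold change -0.78, SE 0.37, edgeR adjusted p 0.2), while without asp1-D333A replicate 2, the library at 5.85 CPM, it did (-0.78, edgeR adjusted p 0.0096), as it did in a fit of the 6 libraries alone (-0.77, edgeR adjusted p 0.0013). In asp1-D333A itself the value was -0.64 (SE 0.36, edgeR adjusted p 0.16), and without its replicate 1 it was -1.08 (edgeR adjusted p 0.0072).

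**Figure D2:**
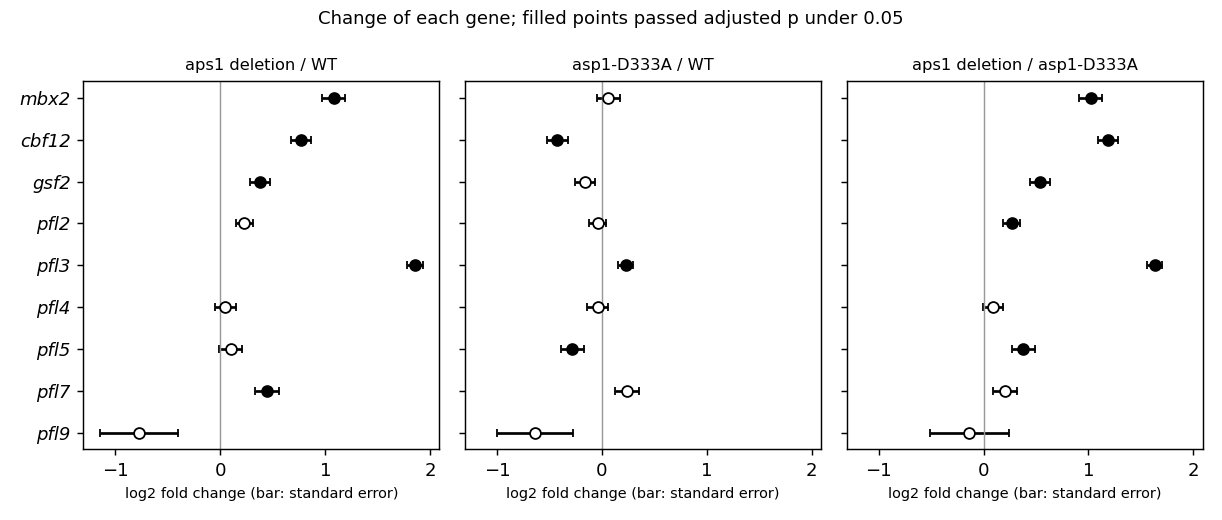
Log2 fold change of each of the 9 genes for each mutant against WT and for the aps1 deletion set against asp1-D333A, with bars for 1 standard error; filled points passed an adjusted p under 0.05. The largest value is 1.86 for pfl3 in the deletion, pfl9 has the widest bars, and cbf12 lies right of 0 in the deletion and left of 0 in asp1-D333A.

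Counted over the members, 5 of 9 were called higher in the aps1 deletion than in WT and 0 lower. Over all 6147 genes tested, 16.6% were called in this comparison, 6.73% higher and 9.83% lower. As the members were chosen with earlier results of these data known, these shares describe them and test nothing. The median log2 fold change was 0.38 over the members and -0.01 over all genes. Between asp1-D333A and WT 1 member was called higher and 2 lower, against 61.1% of all genes called, 30.3% higher and 30.8% lower, so the members' count is not above the background. The median there was -0.04 over the members and 0.01 over all genes. Between the mutants 6 members were higher in the deletion and 0 lower, against 68.8% of all genes called, 33.9% higher and 34.9% lower, with medians of 0.38 and -0.04. The 2 comparisons with WT share the WT libraries. With upper-quartile scaling or total counts alone, the share of higher calls among all called genes moved from 40.7% to 29.0% and 24.8% for the deletion, from 49.6% to 67.3% and 63.7% for asp1-D333A, and from 49.3% to 31.5% and 33.0% between the mutants. The median of all genes then stood at 0.18 and 0.14 for asp1-D333A against WT. The members called in the deletion against WT numbered 5 under both, and those between the mutants 4.

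Non-coding RNAs and a pseudogene next to the members gave 16 features within 2 kb, of which 13 were tested. Of all 6147 genes tested 9.83% were called lower in the deletion and 30.3% higher in asp1-D333A. The share among non-coding RNAs alone was not counted, and a link between a neighbour and its member was not tested. The mbx2 gene lies whole within SPNCRNA.1626, a long non-coding RNA of 5113 bases on the opposite strand that reaches from position -615 to position 4497 counted from the start of mbx2. SPNCRNA.1626 was read at 357, 310 and 312 CPM in WT, 245, 198 and 222 CPM in the deletion strain and 399, 348 and 323 CPM in asp1-D333A. It was lowest in every deletion library, where mbx2 was highest. In the deletion it fell by 0.56 on the log2 scale (SE 0.09, edgeR adjusted p 0.0015), and in asp1-D333A the log2 fold change was 0.13 (SE 0.09, edgeR adjusted p 0.24). Counts of mbx2 were 7.25% to 9% of those of SPNCRNA.1626 in WT, 21.1% to 28.3% in the deletion and 6.11% to 8.71% in asp1-D333A. A second RNA of that strand, SPNCRNA.1625, begins 761 bases before mbx2 and fell by 0.60 in the deletion (SE 0.08, edgeR adjusted p 0.00018), from 56.1 ± 0.605 to 37.1 ± 1.84 CPM. In asp1-D333A, where mbx2 did not pass the test, SPNCRNA.1625 rose by 0.19 (SE 0.08, edgeR adjusted p 0.037). Libraries were made with a stranded kit, but the strand setting of the counting is not given in the sources used here. Over 50 antisense RNAs inside the most abundant coding genes, the antisense count was 0.70% to 1.39% of the sense count in a library. That share does not settle the strand setting, as reads in such overlaps may have been left uncounted. For mbx2, which lies whole within SPNCRNA.1626 in the ASM294v3 annotation, a library held between 435 and 1055 counts. How far reads of mbx2 and SPNCRNA.1626 were mixed was not tested.

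**Figure D3:**
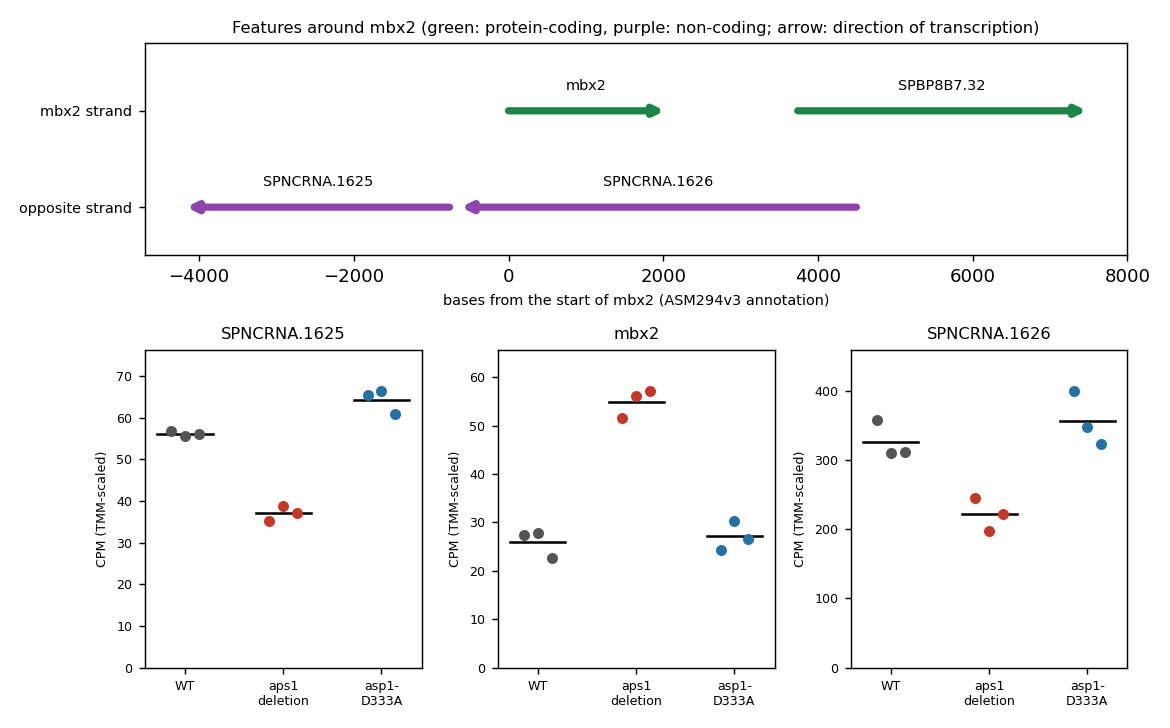
Top, the annotated features around mbx2 by strand, in bases from the start of mbx2 (ASM294v3), with protein-coding genes in green and non-coding RNAs in purple; bottom, CPM of SPNCRNA.1625, mbx2 and SPNCRNA.1626 in each library with a bar at the mean of 3. In the deletion libraries mbx2 lies at 51.6 to 57.1 CPM, above the other strains, and both non-coding RNAs lie below them.

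Near pfl2, SPNCRNA.954 on the opposite strand overlaps the gene by 71 bases and fell by 0.75 in the aps1 deletion (SE 0.11, edgeR adjusted p 0.00077), from 31.9 ± 1.46 to 19.0 ± 1.60 CPM. In asp1-D333A its log2 fold change was -0.02 (SE 0.11, edgeR adjusted p 0.91). Near pfl3, SPNCRNA.322 on the opposite strand, 1213 bases upstream, was read at 12.8 ± 0.694 CPM in WT, 10.4 ± 0.289 in the deletion and 22.7 ± 2.69 in asp1-D333A (SD, n = 3). It rose in asp1-D333A by 0.82 (SE 0.11, edgeR adjusted p 2.6e-05), where pfl3 rose 1.17-fold, and had a value of -0.31 in the deletion (SE 0.11, edgeR adjusted p 0.084). SPNCRNA.1379, which overlaps 303 bases of pfl3 on the opposite strand, had at most 5 counts in a library. Next to pfl7, SPNCRNA.293 rose in asp1-D333A by 0.82 (SE 0.15, edgeR adjusted p 0.00035), and next to pfl5, SPNCRNA.1690 fell there by 0.55 (SE 0.08, edgeR adjusted p 4.2e-05). SPNCRNA.1239, beyond the end of cbf12, rose in asp1-D333A by 1.39 (SE 0.20, edgeR adjusted p 5.2e-05) and fell in the deletion by 0.76 (SE 0.23, edgeR adjusted p 0.039), the opposite of cbf12 in both strains. Its counts were low, at 29 to 42 in WT, 17 to 22 in the deletion and 100 to 133 in asp1-D333A. The fall in the deletion was not called in 9 alternatives. Upstream of gsf2, SPNCRNA.1164 was called between the mutants alone, at -0.49 (SE 0.18, edgeR adjusted p 0.026).

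The pseudogene SPCC188.10c lies 1597 bases upstream of pfl4 on the same strand. It was read at 43.9, 42.1 and 43.5 CPM in WT, 83.9, 90.7 and 92.8 CPM in the deletion strain and 41.4, 38.8 and 32.5 CPM in asp1-D333A. Every deletion library lay above all libraries of the other strains. The rise was 1.05 on the log2 scale (SE 0.09, edgeR adjusted p 8.3e-06), next to 0.05 for its neighbour pfl4, and in asp1-D333A the value was -0.20 (SE 0.09, edgeR adjusted p 0.077). None of its 50-base words was found elsewhere in the genome.

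The protein-coding genes nearest in pattern to each called member were found by Euclidean distance of log2 CPM, centred per gene, over the 9 libraries among 4836 genes. For pfl3 these were msa1, an RNA-binding protein gene (distance 0.806, log2 fold changes 1.36 in the deletion and 0.21 in asp1-D333A), and the uncharacterized SPBC3H7.05c (0.860), while the median distance of all genes was 2.47. For mbx2 they were mfs1, a transporter gene of the MFS family (0.519, with 1.09 and 0.04), and again SPBC3H7.05c (0.589). The nearest to cbf12 were SPBPB7E8.01, uncharacterized, at 0.319 and dcr2, a phosphoprotein phosphatase gene, at 0.342. The gene pma1 of the plasma membrane proton pump was nearest to pfl2 (0.106, with 0.24 and -0.06), followed by cwh43 (0.122). SPBC1E8.02 and krp1 were nearest to gsf2 (0.167 and 0.203), put2 and etp1 to pfl5 (0.163 and 0.179), and pxa1 and ist2 to pfl7 (0.266 and 0.298). These distances describe likeness over 9 libraries of 3 strains and carry no test.

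Other surface adhesins were pfl8 (SPAC1F8.06), pfl6 and the mating agglutinin genes map4 and mam3, 4 in all. Levels of pfl8 were 49.8 ± 3.89 CPM in WT, 113 ± 10.6 in the deletion strain and 81.6 ± 14.6 in asp1-D333A (SD, n = 3), with no overlap between the groups. It rose by 1.18 in the deletion (SE 0.12, edgeR adjusted p 3e-05) and by 0.71 in asp1-D333A (SE 0.12, edgeR adjusted p 2e-04), and among the members pfl3 alone was called higher in both mutants. For pfl6, counts were 7 to 16 in WT, 15 to 27 in the deletion and 4 to 7 in asp1-D333A. It was called lower in asp1-D333A, at -1.56 (SE 0.45, edgeR adjusted p 0.0086), and since 95.8% of its 50-base words occur elsewhere in the genome its counts are uncertain. Neither map4 nor mam3 was called in any comparison.

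Of 19 other regulators of flocculation examined, 3 were called higher and 0 lower in the aps1 deletion, against 6.73% and 9.83% of all genes, with a median log2 fold change of 0.06. The list mixes regulators of different kinds, co-repressors among them, so counts by direction do not speak to flocculation itself. The called genes were lkh1, a protein kinase gene (0.34, edgeR adjusted p 0.021), ldb1, also called adn1, of an adhesion regulator (0.32, edgeR adjusted p 0.014), and tup11, a co-repressor gene (0.25, edgeR adjusted p 0.016). With total counts 1 was called higher and 0 lower, and without aps1 deletion replicate 3 none was called (edgeR). In asp1-D333A 3 were called higher and 9 lower, with a median of -0.19, and 4 higher and 6 lower with upper-quartile scaling or total counts. Of all genes 30.3% were called higher there and 30.8% lower, so the number called in this group is near the background. Levels of the co-repressor gene tup12 were 434 ± 17.2 CPM in WT, 452 ± 25.3 in the deletion strain and 275 ± 6.90 in asp1-D333A (SD, n = 3). The genes tup12 and tup11 fell in asp1-D333A by 0.66 (SE 0.06, edgeR adjusted p 1.7e-06) and 0.64 (SE 0.06, edgeR adjusted p 2.2e-06). The kinase gene sck1 fell by 0.57 (SE 0.07, edgeR adjusted p 2e-05), and cbf11, the other CSL family gene, by 0.50 (SE 0.09, edgeR adjusted p 0.00034). The transcription factor gene adn3 fell by 0.48 (SE 0.07, edgeR adjusted p 7e-05). The 3 called higher were gsf1 (0.48), pka1 (0.47) and mbx1 (0.22).

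Enzymes and proteins of the glucan cell wall made up a further group of 27 genes. In the aps1 deletion 6 were called higher and 1 lower, against 6.73% and 9.83% of all genes, with a median of 0.01, and leaving out 1 library gave between 0 and 7 higher. In asp1-D333A 3 were called higher and 13 lower, with a median of -0.19, and upper-quartile scaling gave 5 higher and 6 lower. The number called is near the 61.1% of all genes. Between the mutants 14 were higher in the deletion and 4 lower, a balance that turned to 8 and 10 with upper-quartile scaling and to 9 and 10 with total counts, and 68.8% of all genes were called in this comparison. Of these genes 5 (eng1, agn1, agn2, exg3 and adg1) passed the test in both mutants with opposite signs under TMM scaling, up in the deletion strain and down in the other. How many of all genes did so was not counted. The gene called lower in the deletion, eng2 (-0.34, edgeR adjusted p 0.0035), was called lower in asp1-D333A as well (-0.21, edgeR adjusted p 0.012). The endoglucanase gene eng1 stood at 763 ± 17.4 CPM in WT, 1014 ± 68.2 in the deletion and 483 ± 73.2 in asp1-D333A, log2 fold changes of 0.41 (SE 0.10, edgeR adjusted p 0.012) and -0.66 (SE 0.10, edgeR adjusted p 7.4e-05). For agn1 the values were 0.25 (SE 0.06, edgeR adjusted p 0.013) and -0.60 (SE 0.06, edgeR adjusted p 2.7e-06), and for exg3 they were 0.33 (SE 0.10, edgeR adjusted p 0.039) and -0.76 (SE 0.10, edgeR adjusted p 3e-05). Their calls in the deletion were lost in 2 (eng1), 1 (agn1) and 8 (exg3) of the 17 alternatives. Those of agn2 and adg1 were not followed through the alternatives. In asp1-D333A bgl2 rose by 0.55 (SE 0.11, edgeR adjusted p 0.00079) and the low-level psu2, with 9 to 19 counts in WT and 54 to 144 in asp1-D333A, rose by 2.31 (SE 0.41, edgeR adjusted p 0.00027).

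**Figure D4:**
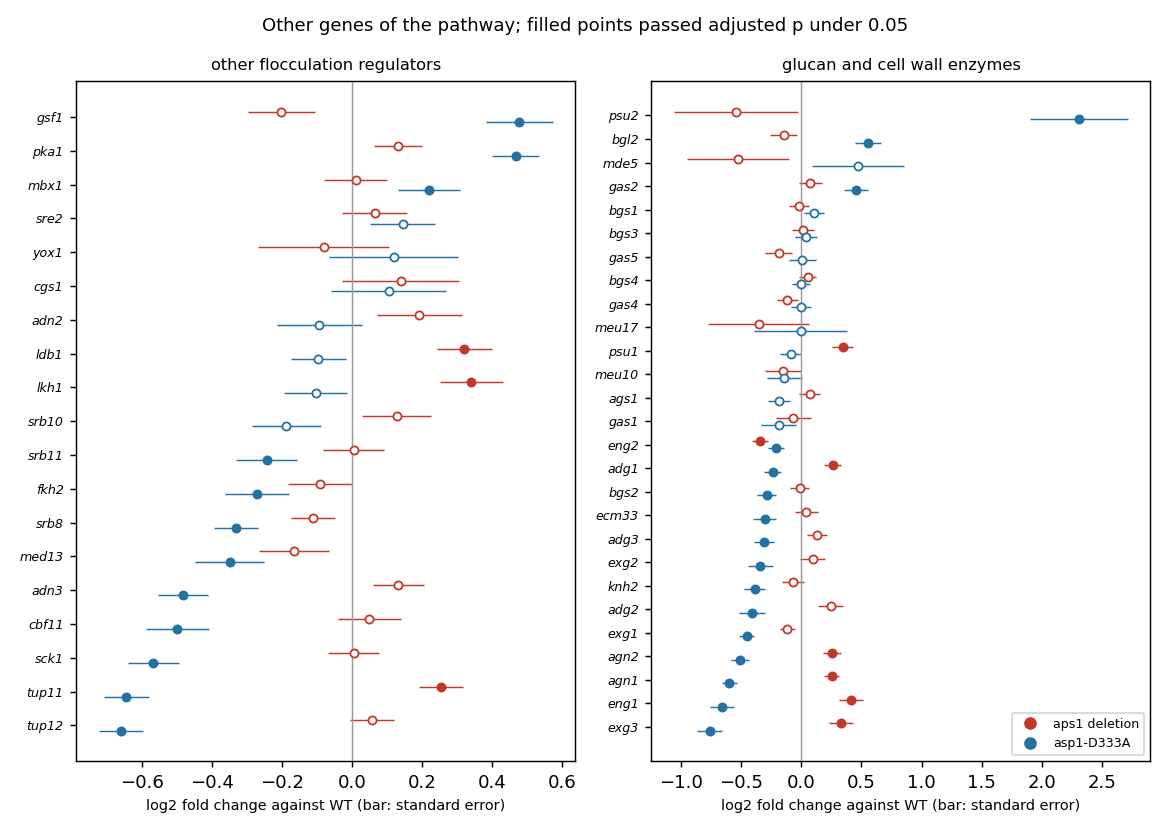
Log2 fold change against WT of the other flocculation regulators (left) and the glucan and cell wall genes (right) in the aps1 deletion (red) and asp1-D333A (blue), with bars for 1 standard error; filled points passed an adjusted p under 0.05. Among the asp1-D333A values tup12 lies farthest left at -0.66 on the left panel and psu2 farthest right at 2.31 on the right panel, and most filled blue points lie left of 0 under TMM scaling.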

How the data were processed

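Polyadenylated RNA of 9 libraries was sequenced as read pairs from stranded Illumina TruSeq libraries, per the labels' protocols. The authors deposited 1 table of raw counts, whole numbers for each identifier and library without normalization. HISAT2 2.1.0, SAMtools, HTSeq 0.10.0, DESeq2 and build ASM294v2 are named in the submitters' processing notes, without their roles; the strand setting and the treatment of reads with several matches are not given in the sources used here.

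Of 6986 identifiers 6846 (98.0%) matched the RefSeq annotation of ASM294v3. Since the builds differ, no coordinates are given, and sequences were read from the ASM294v3 genome by gene identifier. Start regions and repeat units come from that assembly, and repeats were sought with words of 50 bases.

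The tests used edgeR 4.0.16 under R 4.3.3: filterByExpr with a minimum count of 10 kept 6147 identifiers, TMM scaled the libraries, and all 9 libraries shared 1 quasi-likelihood fit. Benjamini-Hochberg adjustment ran over all 6147, and a call is an adjusted p under 0.05; a standard error is the log2 fold change divided by the root of F. CPM use TMM-scaled totals, and log2 CPM for distances a prior count of 2. The common biological coefficient of variation was 0.0917, so at the members' counts the spread between libraries, more than counting error, limits precision. The procedure was tested on simulated counts.

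The members and lists were chosen with earlier results of these data known. Named genes are all members; up to 5 called genes of a list with the largest change against WT; non-coding neighbours within 2 kb called in any comparison that average 50 counts or more; and the 2 coding genes nearest in pattern to each called member. SPCC188.10c, a pseudogene, and SPNCRNA.1379, which was not tested, were named beyond that rule after their values were seen. So were agn2, adg1, eng2, lkh1, ldb1, gsf1, pka1, mbx1, map4 and mam3. List symbols without a match (rfl1, crf1, ghf1 and ghf2) were not analysed here, and 1 further listed gene is not reported here. Alternatives were other scalings and filters, DESeq2 1.42.0, the 6 libraries of a pair, protein-coding genes alone, leaving out each library, and a replicate block between the mutants.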

Additional observations from a re-analysis of the deposited data

How the results depend on the processing

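The calls of pfl3, mbx2 and cbf12 in the aps1 deletion against WT and against asp1-D333A, and of cbf12 in asp1-D333A, held in every alternative run. In the deletion against WT 5 members were called. Leaving out 1 library gave 3 to 6, with 3 without WT replicate 5 or without aps1 deletion replicate 3, DESeq2 gave 6 and the 6 libraries alone 7. Against WT asp1-D333A had 3 called members, and 2 to 3 when 1 library was left out. Upper-quartile scaling, total counts, a minimum count of 50 and protein-coding genes alone each called pfl7 in place of pfl5. Between the mutants 6 were called, 4 with upper-quartile scaling or total counts and 5 in protein-coding genes alone. Over all genes 1018 were called in the deletion against WT, 593 in protein-coding genes alone, and 539 to 1668 when 1 library was left out.

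Signs turned only in log2 fold changes that had not passed the test. Upper-quartile scaling turned gsf2 to 0.0113, pfl2 to 0.130 and pfl4 to 0.130 in asp1-D333A against WT, and pfl7 to -0.0102, pfl4 to -0.125 and asp1 to -0.0214 between the mutants. Total counts turned pfl4 to -0.0102 in the deletion against WT, pfl2 to 0.0922 and pfl4 to 0.0916 in asp1-D333A against WT, and pfl4 to -0.102 and asp1 to -0.00050 between the mutants. Protein-coding genes alone turned pfl2 to 0.0071 and pfl4 to 0.0080 in asp1-D333A against WT. Over the fits with 1 library left out, pfl4 ran from -0.0130 to 0.109 in the deletion against WT. In asp1-D333A against WT pfl2 ran from -0.0939 to 0.0083, pfl4 from -0.107 to 0.0683, mbx2 from -0.0324 to 0.137 and asp1 from -0.0081 to 0.228. Between the mutants pfl4 ran from -0.0188 to 0.156 and pfl9 from -0.482 to 0.306. The cause was not tested.

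The 2 mutants share the replicate numbers 1, 2 and 3. Deviations of same-numbered libraries correlated at 0.146, 0.0607 and -0.131, so the numbers were not taken as a pairing, nor did every library correlate best with its own number. With the replicate block 5 members were called between the mutants, pfl2 no longer among them (0.28, edgeR adjusted p 0.08), and 3855 genes in place of 4232. WT carries other numbers, so no block could be made against it.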
